A study of Mus musculus with 12 samples.

Results

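Cabcoco1, listed under the older symbol 1700040L02Rik in some annotations, and Ctnna3 are 2 genes of mouse chromosome 10 that were followed across gastrocnemius muscle of wild-type and ERRa-null mice. They were chosen by their measured genotype difference, because both were higher in ERRa-null muscle at rest and after exercise, and because they lie in the same chromosome region. They are 2 of the 22180 genes that have a probeset with 1 gene symbol on the Affymetrix Mouse Gene 2.0 ST array. Each is read by 1 such probeset, 17241676 for Cabcoco1 (Entrez gene 73287) and 17233930 for Ctnna3 (Entrez gene 216033). Both passed the filter on low values, which left 13308 genes for testing. The genotype contrast therefore describes the 2 genes and tests nothing about them, whereas the exercise contrasts were not used to choose them and were tested.

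The series asked how transcript levels in muscle depend on ERRa at rest and after acute exercise. Total RNA of gastrocnemius, a mixed calf muscle, was measured on 12 arrays in 4 groups of 3, labelled as biological replicates. All mice were of strain FVB, labelled male, and 2 to 3 months old. The groups were wild type sedentary, ERRa-null sedentary, wild type exercised and ERRa-null exercised, and exercised mice were sampled 2 h after a treadmill run to exhaustion. How the ERRa-null allele was made, and whether littermates were compared, is not given in the sources used here. Values are log2 expression levels from RMA, so a difference of 1 is a doubling, and differences are relative to most other transcripts.

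Cabcoco1 encodes a coiled-coil protein that binds calcium and is associated with cilia, and in mouse it was described in the sperm flagellum. Ctnna3 encodes alpha-T-catenin, which ties cadherin and beta-catenin complexes at cell junctions to the actin cytoskeleton and is best known from the intercalated discs of the heart and from testis. ERRa, the product of Esrra on chromosome 19, is a nuclear receptor without a known natural ligand that switches on genes of mitochondrial respiration and fat oxidation, and it binds DNA at an extended form of the nuclear receptor core motif AGGTCA.

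The bases before the annotated starts are shown because both genes were higher in the same arrays and the deleted factor binds DNA. They are RefSeq sequences of build GRCm38.p6, each written 5′ to 3′ on the strand of its gene, with AGGTCA in capitals. The Cabcoco1 stretch is chr10:68541922-68542125 on the minus strand. It holds the 204 bases before the outermost annotated start. The first Ctnna3 stretch is chr10:63429848-63430097 and the second is chr10:63457261-63457510, both on the plus strand with 250 bases before a start. The second Ctnna3 start lies inside the gene, downstream of the first.
Cabcoco1: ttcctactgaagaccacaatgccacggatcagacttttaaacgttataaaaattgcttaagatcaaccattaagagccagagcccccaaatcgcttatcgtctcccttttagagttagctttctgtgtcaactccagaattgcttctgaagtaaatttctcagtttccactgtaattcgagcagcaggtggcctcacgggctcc
Ctnna3 start 1: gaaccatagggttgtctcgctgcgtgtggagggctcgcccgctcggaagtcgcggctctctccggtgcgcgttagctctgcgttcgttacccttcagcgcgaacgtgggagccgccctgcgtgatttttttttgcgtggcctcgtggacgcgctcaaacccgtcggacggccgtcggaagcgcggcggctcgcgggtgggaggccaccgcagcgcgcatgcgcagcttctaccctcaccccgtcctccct
Ctnna3 start 2: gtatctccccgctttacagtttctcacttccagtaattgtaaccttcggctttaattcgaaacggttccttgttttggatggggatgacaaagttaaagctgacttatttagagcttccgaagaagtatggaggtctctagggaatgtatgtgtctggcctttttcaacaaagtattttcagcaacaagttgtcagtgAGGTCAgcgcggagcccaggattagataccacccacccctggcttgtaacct

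The upstream stretches of the 2 genes differed in composition. The Cabcoco1 stretch is 43.6% G and C with 6 CpG dinucleotides, and the first Ctnna3 stretch is 67.6% G and C with 36. Over 32817 promoters the median was 52.4% and 6 CpG, with 10th to 90th percentiles of 38.8% to 69.2% and 1 to 25 CpG. The CpG count of the first Ctnna3 start was thus above the 90th percentile. This background was taken over stretches as long as those of Ctnna3. The Cabcoco1 stretch is shorter and ends upstream of the start used in the motif search below. Its CpG count therefore cannot be placed against these percentiles, and its share of G and C is not like for like with them. The second Ctnna3 start had 44.8% G and C and 7 CpG, and a further start, not printed, had 45.6% and 1 CpG.

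TNAAGGTCA, the extended motif of the ERR receptors, was searched on both strands of the 300-base windows, which reach 50 bases past each start. It was found at none of the 4 starts, and 1.28% of all promoter windows hold it. AGGTCA, which is contained in that motif, occurred only at the second Ctnna3 start, with its first base 52 bases before the start, and 16.3% of all windows hold it. GTTGCC, a core of the X-box of RFX factors that regulate cilium genes, occurred at Cabcoco1, and 12.5% of all windows hold it. Its first base is at position 7 after the start used for the window. That start lies downstream of the outermost annotated start, where the printed bases end, so the match is not printed here. These are matches of letters and not sites of binding.

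The labels were checked on the deleted gene first. Esrra ran from 7.41 to 7.63 in the 6 wild-type arrays and from 6.55 to 6.89 in the 6 ERRa-null arrays, so the genotypes did not overlap, and the ERRa-null levels stayed above the filter value of 5.32. Its difference was -0.82 ± 0.11 at rest (standard error, limma adjusted p = 0.0238) and -0.78 ± 0.11 after exercise (limma adjusted p = 0.0227). At rest the call was lost with the replicate number as a block (limma adjusted p = 0.059), and in the groups compared alone it was lost at rest (limma adjusted p = 0.177) and after exercise (limma adjusted p = 0.0638). Without the 3 arrays of high Xist described next, the difference was -0.82 at rest (limma adjusted p = 0.101) and -0.70 after exercise (limma adjusted p = 0.397). That leaves 1 ERRa-null exercised array, whose spread is taken from the remaining groups. Titles and descriptions put each array in the groups used here, but the source names give the opposite exercise state for ERRa-null sedentary and wild type exercised arrays. Mean levels of 9 heat shock chaperones per array were 7.73 to 8.01 in the arrays titled sedentary and 8.70 to 9.55 in those titled exercised. Median levels of the 12 arrays ran from 5.15 to 5.26. Of the 14 skeletal muscle markers, all were tested and their mean per array was 12.76 to 12.90. Xist was 7.82 to 7.90 in 3 arrays, wild type exercised replicate 3 and ERRa-null exercised replicates 2 and 3, and 3.66 to 4.30 in the other 9, against the male label. Seminal vesicle markers had a mean of 10.19 in ERRa-null sedentary replicate 1 and of at most 3.91 in all other arrays.

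Cabcoco1 was low in every wild-type array and high in every ERRa-null array. In wild type sedentary muscle its levels were 5.32, 5.02 and 5.41, with a mean of 5.25 ± 0.20 (SD, n = 3). In ERRa-null sedentary muscle they were 8.69, 9.16 and 9.15, with a mean of 8.999 ± 0.27 (SD, n = 3). After exercise the wild-type levels were 5.52, 5.10 and 4.76, with a mean of 5.13 ± 0.38 (SD, n = 3). The ERRa-null exercised levels were 9.25, 9.02 and 9.09, with a mean of 9.12 ± 0.12 (SD, n = 3). The genotypes did not overlap, and the lowest ERRa-null array stood 3.17 above the highest wild-type array, where the pooled SD within groups was 0.26.

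The order of the Cabcoco1 group means was ERRa-null exercised, ERRa-null sedentary, wild type sedentary and wild type exercised. The 2 ERRa-null groups overlapped, and so did the 2 wild-type groups. Only the step between the genotypes exceeded the spread of the groups. It was 3.75 at rest, a 13.5-fold difference of array levels, and 3.99 after exercise, a 15.9-fold difference. With wild-type means below the filter value of 5.32, these folds are not exact. By size it was the largest of the 13308 genes in both states. The next genes at rest were Ceacam10 at 2.57 and Gstp3 at -1.76, and after exercise Ighm at -2.58 and Mup3 at -1.97. The size of Ighm rests on 1 probeset, and with the mean of its probesets it was -0.39. Over all genes, 7 passed limma's test as higher at rest (0.0526%) and 4 as lower (0.0301%), and after exercise 12 (0.0902%) were higher and 38 (0.286%) lower.

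The gene passed the filter through the ERRa-null arrays, and its wild-type level is near that of transcripts left out as too dim. In whole muscle, more cells that express a gene and more RNA per cell cannot be told apart. The array with seminal vesicle transcripts had the lowest Cabcoco1 level of the ERRa-null arrays, 8.69, and without it the difference at rest was 3.91. Without the 3 arrays of high Xist the difference after exercise was 3.94.

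**Figure D1:**
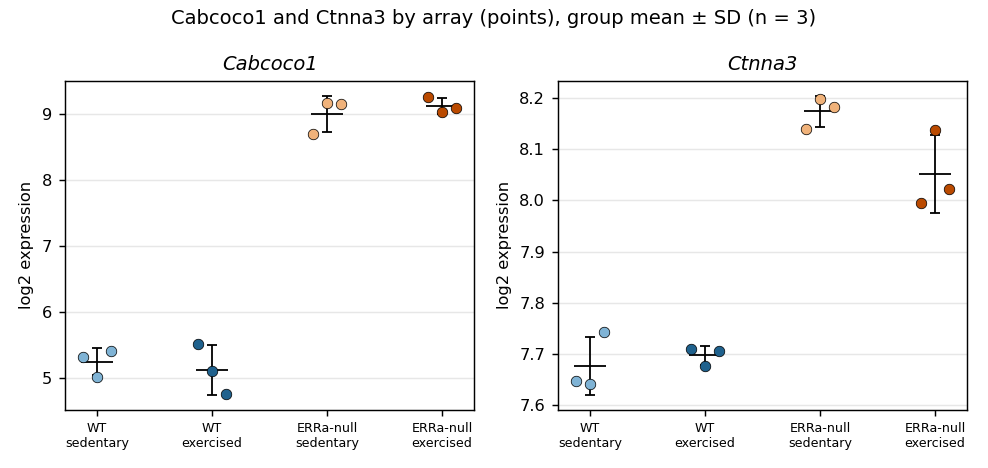
Log2 expression level of Cabcoco1 and Ctnna3 in each of the 12 arrays (points), with the mean and SD of each group (n = 3). The ERRa-null arrays of Cabcoco1 lie between 8.69 and 9.25 and its wild-type arrays between 4.76 and 5.52, and those of Ctnna3 between 7.99 and 8.20 and between 7.64 and 7.74.

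Ctnna3 was well above the filter value in all groups and differed by less. Its levels were 7.65, 7.64 and 7.74 in wild type sedentary muscle, with a mean of 7.68 ± 0.057 (SD, n = 3). They were 8.14, 8.20 and 8.18 in ERRa-null sedentary muscle, with a mean of 8.17 ± 0.030 (SD, n = 3). In wild type exercised muscle they were 7.71, 7.68 and 7.71, with a mean of 7.70 ± 0.019 (SD, n = 3). In ERRa-null exercised muscle they were 7.99, 8.14 and 8.02, with a mean of 8.05 ± 0.076 (SD, n = 3). Here too the genotypes did not overlap, but the gap between the lowest ERRa-null and the highest wild-type array was 0.25, with a pooled SD of 0.051. For Ctnna3 as for Cabcoco1, the share of all genes so separated by genotype was not counted.

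The order of the Ctnna3 means was ERRa-null sedentary, ERRa-null exercised, wild type exercised and wild type sedentary. The wild-type groups overlapped. The ERRa-null groups touched without overlap, since the highest exercised and the lowest sedentary array both read 8.14. The genotype difference was 0.50 at rest, 1.41-fold, and 0.35 after exercise, 1.28-fold. By size it ranked 231 at rest and 673 after exercise among the 13308 genes. Without the 3 arrays of high Xist the difference after exercise was 0.30.

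Neither gene passed the test for a change with exercise. For Cabcoco1 the wild-type group means, 5.25 and 5.13, lie below the filter value, though single arrays lie above it. At such low levels this test may not show a fall. It differed by -0.12 ± 0.18 in wild type (standard error, 95% interval -0.53 to 0.28, limma adjusted p = 0.807). In ERRa-null muscle it differed by 0.12 ± 0.18 (95% interval -0.28 to 0.52, limma adjusted p = 0.827). Both signs turned when 1 array was left out, to 0.060 in wild type without exercised replicate 3 and to -0.036 in ERRa-null muscle without sedentary replicate 1.

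Ctnna3 differed by 0.02 ± 0.07 with exercise in wild type (95% interval -0.13 to 0.17, limma adjusted p = 0.924), and this sign turned to -0.0079 with each array centred on its median. In ERRa-null muscle it differed by -0.12 ± 0.07 (95% interval -0.27 to 0.03, limma adjusted p = 0.483). There all 3 exercised arrays lay below all 3 sedentary arrays, which was so for 10% of all genes tested. The share of genes called with exercise was 2.22% higher and 1.21% lower in wild type, and 0.383% higher and 0.255% lower in ERRa-null muscle.

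The difference between the exercise effects of the genotypes equals the difference between the genotype differences that chose the genes, so it is a description here, with no test. It was 0.24 ± 0.26 for Cabcoco1 (standard error, 95% interval -0.33 to 0.81), and it takes in the low wild-type levels. For Ctnna3 it was -0.14 ± 0.10 (95% interval -0.35 to 0.07). Over all genes 1 passed limma's test of this interaction, 0.00751%.

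The levels of the 2 genes were also set against each other within each genotype, where the choice of the genes does not fix the relation. In wild type the group means of Cabcoco1 lie below the filter value, so much of its spread there may be measurement noise. In the 6 wild-type arrays Pearson's r was 0.27 (exact permutation p = 0.603, adjusted over 2 relations 0.719) and Spearman's rho 0.54 (exact permutation p = 0.297, adjusted 0.594). In the 6 ERRa-null arrays r was -0.26 (exact permutation p = 0.719, adjusted 0.719) and rho -0.086 (exact permutation p = 0.919, adjusted 0.919). Each set of 6 pools sedentary and exercised arrays, and arrays of high and low Xist. The permutations did not keep the exercise states apart, so any step between them enters r and rho. Without the 2 arrays farthest from the median of Cabcoco1, 4 arrays were left in each genotype. There r was 0.65 in wild type and 0.49 in ERRa-null muscle, where its sign turned, so r depends on single arrays. These 2 values were not tested. Neither genotype passed the test over its 6 arrays, and no r is given as a test over both genotypes because the arrays form 2 clusters.

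The other genes of the region were examined in the same comparisons. RefSeq lists 54 genes between Ctnna3 and Cabcoco1, of which 12 have a probeset with 1 symbol and 8 were tested. With 20 measured genes on either outer side, 52 neighbours were on the array and 37 were tested. At rest 0 of the 37 passed limma's test for genotype, with 4 at an unadjusted p under 0.05 and a lowest adjusted p of 0.291. After exercise 0 of 37 passed as well, with 4 at an unadjusted p under 0.05 and a lowest adjusted p of 0.29. These counts stand beside 11 of 13308 genes called at rest and 50 after exercise, and 8.22% and 10.4% of all genes with an unadjusted p under 0.05, so they are near the background. The median difference was 0.06 at rest and -0.05 after exercise, beside -0.0012 and 0.0013 over all genes tested.

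The neighbours' differences ran from -0.31 for Tfam, which packages mitochondrial DNA, to 0.36 for Rtkn2 at rest, and from -0.44 for Fam13c to 0.35 for Tet1, a DNA demethylation enzyme, after exercise. All were smaller than that of Ctnna3 at rest, and 1 size, that of Fam13c, exceeded that of Ctnna3 after exercise. The nearest measured gene outside Ctnna3 is Dnajc12, a co-chaperone, which differed by 0.07 at rest (limma adjusted p = 0.898) and -0.04 after exercise (limma adjusted p = 0.961). The nearest outside Cabcoco1 is Tmem26, a membrane protein gene, which differed by -0.16 (limma adjusted p = 0.8) and 0.11 (limma adjusted p = 0.878). The nearest between the 2 genes on the Cabcoco1 side, the long noncoding RNA 4930545H06Rik, was too dim to be tested at a mean of 2.74 and differed by -0.09 and -0.10.

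**Figure D2:**
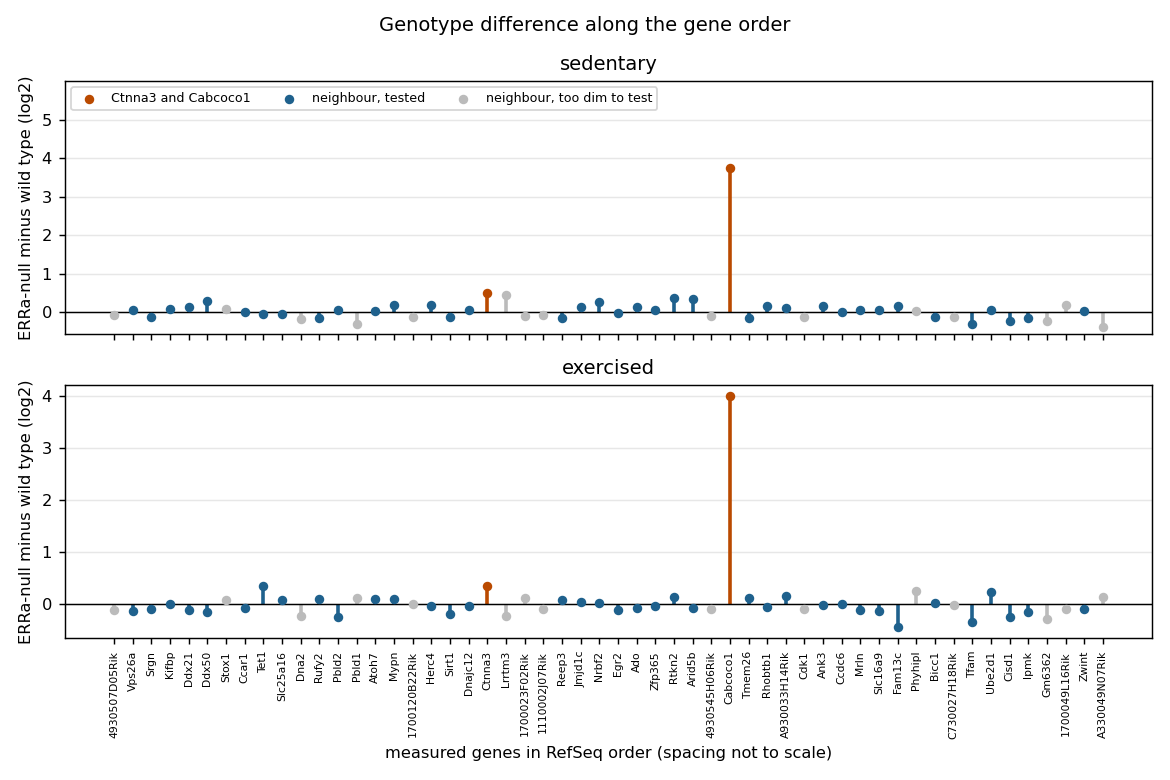
Genotype difference (ERRa-null minus wild type, log2) of the measured genes in RefSeq order along the region, at rest and after exercise, by order and not by distance. Cabcoco1 stands at 3.75 and 3.99, and the tested neighbours lie between -0.44 and 0.36.

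Of the 8 tested genes between the 2, 6 were higher in ERRa-null muscle at rest and 4 after exercise, and the adjusted p was at least 0.513. Arid5b, a DNA-binding factor gene, differed by 0.35 at rest and -0.07 after exercise. Reep3, a gene of the endoplasmic reticulum, differed by -0.15 and 0.07. Jmjd1c, of the histone demethylase family, differed by 0.15 and 0.04, and Nrbf2, an autophagy regulator, by 0.26 and 0.01. On the whole chromosome without Cabcoco1 and Ctnna3, 0 of 673 genes passed limma's genotype test at rest, with 63 at an unadjusted p under 0.05. After exercise 1 of these was higher, the creatine synthesis gene Gamt at 0.99. The 3 lower were Pdxk at -1.12, Midn at -0.64 and Cbarp at -0.55. Beside these, 8.22% of all genes had an unadjusted p under 0.05 at rest. After exercise 0.0902% of all genes were called higher and 0.286% lower, so the counts of the chromosome are near the background.

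RefSeq places 2 genes over Ctnna3, Lrrtm3 and the long noncoding RNA Gm30644, and 2 long noncoding RNAs over Cabcoco1, Gm40683 and Gm32872. Whether the probesets separate the strands is not given in the sources used here, so signal of Cabcoco1 and of these transcripts cannot be told apart. Lrrtm3, a gene for a synaptic adhesion protein nested in Ctnna3, was measured but too dim to be tested. Its levels were 4.73, 4.67 and 4.34 in wild type sedentary, and 5.05, 4.92 and 5.10 in ERRa-null sedentary muscle. They were 5.01, 4.78 and 4.98 in wild type exercised, and 4.70, 4.60 and 4.75 in ERRa-null exercised muscle. Lrrtm3 was thus higher in all ERRa-null arrays at rest, by 0.45, and lower in all of them after exercise, by -0.24, a pattern unlike that of its host Ctnna3. With no filter on low values its interaction was -0.68 (limma adjusted p = 0.707). The share of all genes with such a pattern was not counted.

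With exercise, 3 of the 37 neighbours passed limma's test in wild type and 0 in ERRa-null muscle. An unadjusted p under 0.05 was found for 12 of the 37 in wild type and 7 in ERRa-null muscle. Both are above the shares over all genes, 16.1% and 13.1%. The calls in wild type, 2 higher and 1 lower of 37, are also above the 2.22% and 1.21% of all genes, but they rest on 3 genes. Whether the region differs from other genes with exercise was not tested. Mypn, which encodes the sarcomere protein myopalladin, rose by 0.27 ± 0.05 in wild type (limma adjusted p = 0.0158). Ank3, which encodes the membrane scaffold ankyrin-G, rose by 0.40 ± 0.09 (limma adjusted p = 0.0264). Slc25a16, a mitochondrial carrier gene, fell by 0.39 ± 0.09 (limma adjusted p = 0.0344). With arrays centred on their median these calls were lost at differences of 0.24 for Mypn, 0.37 for Ank3 and -0.42 for Slc25a16. Without the 3 arrays of high Xist they were lost at 0.25, 0.36 and -0.43, so the sizes moved little. In the fit over all 12 arrays none of the 3 interactions passed (limma adjusted p = 0.999 for each).

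Egr2, an immediate early transcription factor gene that lies between Ctnna3 and Cabcoco1, had the highest difference with exercise among the tested neighbours in both genotypes. Its wild-type levels were 6.25, 6.16 and 6.34 in sedentary and 6.52, 6.88 and 6.73 in exercised muscle. Its ERRa-null levels were 6.28, 6.37 and 6.02 in sedentary and 6.54, 6.69 and 6.57 in exercised muscle. The exercised arrays were above the sedentary ones in both genotypes, but the differences of 0.46 (limma adjusted p = 0.0507) and 0.38 (limma adjusted p = 0.186) did not pass the test. The share of all genes with exercised arrays so separated was not counted. In wild type Egr2 passed with no intensity trend (limma adjusted p = 0.0489), without ERRa-null sedentary replicate 3 (limma adjusted p = 0.04) and without wild type exercised replicate 1 (limma adjusted p = 0.0415). Under every other alternative run it did not pass. These include the other filters on low values, the replicate block, the groups compared alone and median centring.

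**Figure D3:**
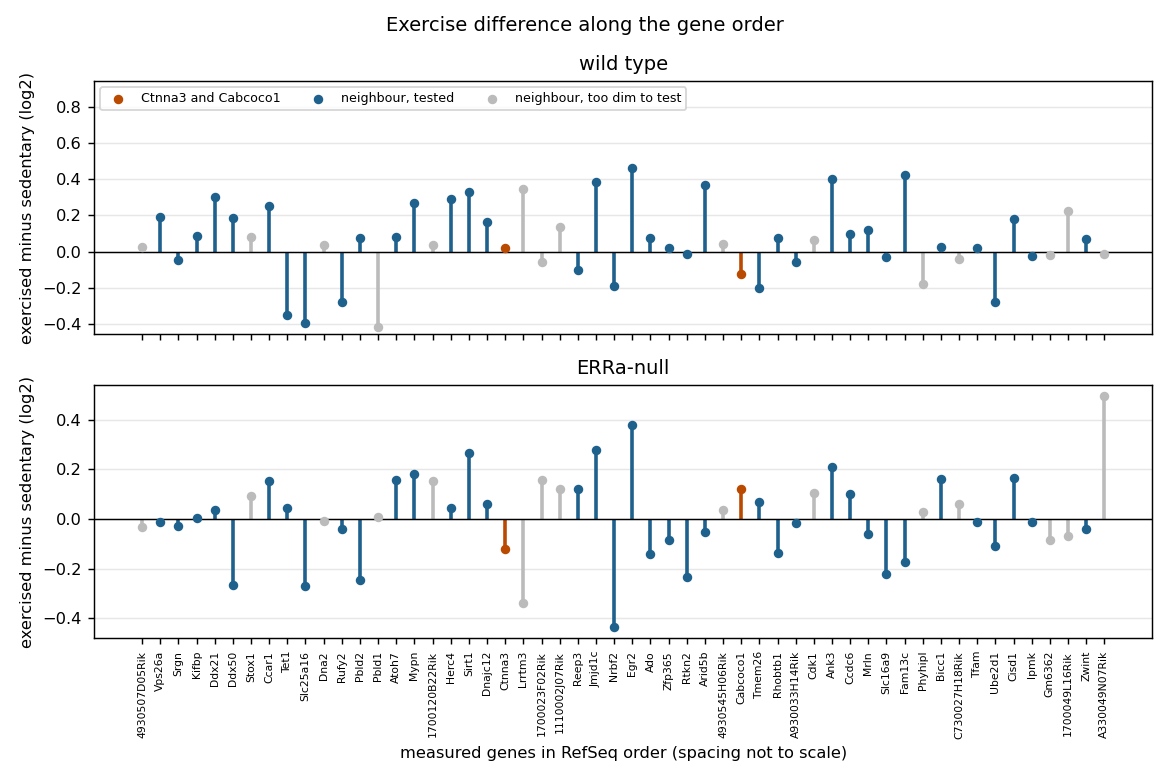
Difference with exercise (exercised minus sedentary, log2) of the measured genes in RefSeq order along the region, in wild type and in ERRa-null muscle. Cabcoco1 and Ctnna3 lie near 0, at -0.12 and 0.02 in wild type, while Egr2 between them is at 0.46 in wild type and 0.38 in ERRa-null muscle.

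**Figure D4:**
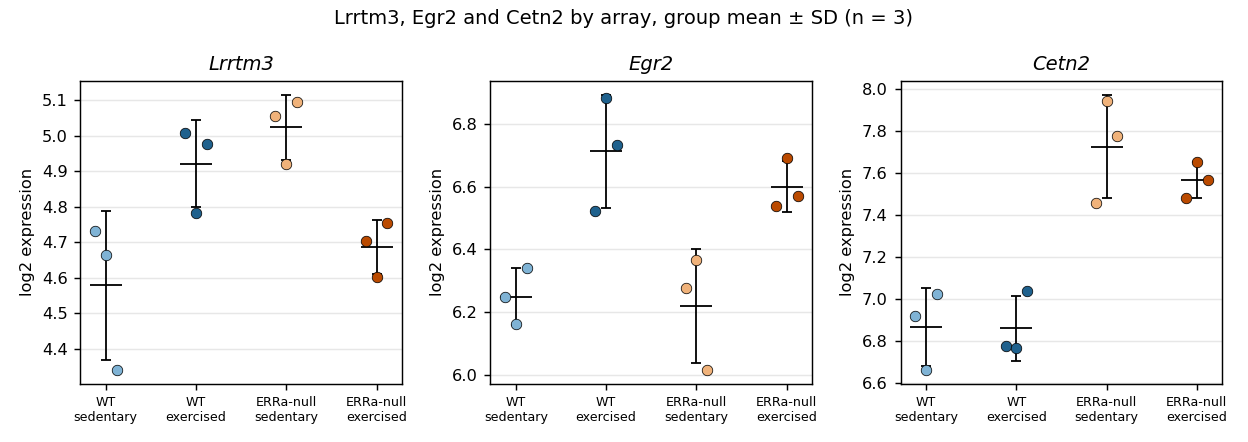
Log2 expression level of Lrrtm3, Egr2 and Cetn2 in each of the 12 arrays (points), with the mean and SD of each group (n = 3). Lrrtm3 changes its order between rest and exercise, Egr2 is higher in exercised arrays, and Cetn2 is higher in ERRa-null arrays.

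Genes of the junctions in which alpha-T-catenin works were examined next. Of 35 listed genes of alpha-catenins and adherens junctions, 30 were tested, and 0 passed limma's test for genotype at rest or after exercise, with 4 at an unadjusted p under 0.05 in each. These counts are near the shares over all genes, 8.22% at rest and 10.4% after exercise with an unadjusted p under 0.05. The median of the list was 0.03 in both states. Ctnna1, the widely expressed alpha-catenin, differed by 0.08 and 0.04, and Ctnna2, the neural form, was too dim to be tested. Among the cadherins, N-cadherin (Cdh2) differed by -0.49 at rest (limma adjusted p = 0.399) and Cdh4 by 0.42 (limma adjusted p = 0.468) and 0.43 (limma adjusted p = 0.307). Pkp2, the desmosomal plakophilin that binds alpha-T-catenin, differed by -0.44 after exercise (limma adjusted p = 0.373), and the gap junction gene Gja1 by -0.39 at rest (limma adjusted p = 0.543). The other genes of smallest p were Cdh13 at 0.22 and Cdh11 at 0.33 after exercise, and neither passed.

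Xirp1, an actin-binding protein of muscle attachment sites and intercalated discs, was the 1 gene of this list called with exercise. It rose by 2.17 in wild type (limma adjusted p = 6.09e-05) and by 1.65 in ERRa-null muscle (limma adjusted p = 0.0016), and 29 of 30 did not pass in either. Over all genes, 2.22% were called higher with exercise in wild type and 0.383% in ERRa-null muscle. The call in ERRa-null muscle was lost with a replicate block on the groups compared alone (limma adjusted p = 0.0872). Its genotype difference was 0.55 at rest (limma adjusted p = 0.417).

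Of 86 listed genes of cilia and flagella, 81 were on the array and 38 were tested. For genotype at rest 1 was higher and 0 lower, and after exercise 0 passed limma's test, with 4 at an unadjusted p under 0.05 in each state. Beside these, 0.0526% of all genes were called higher at rest, and 8.22% and 10.4% had an unadjusted p under 0.05, so the counts of the list at that threshold are near the background. The median of the list was 0.04 at rest and 0.05 after exercise. Cetn2, which encodes the centriole protein centrin 2, was the gene called. Its wild-type levels were 6.92, 6.66 and 7.03 at rest and 6.78, 6.77 and 7.04 after exercise. Its ERRa-null levels were 7.46, 7.94 and 7.78 at rest and 7.48, 7.65 and 7.57 after exercise. The genotypes did not overlap in either state, and the share of all genes so separated was not counted.

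The difference of Cetn2 was 0.86 ± 0.13 at rest (limma adjusted p = 0.0423) and 0.70 ± 0.13 after exercise (limma adjusted p = 0.0512). The call at rest was lost in most alternatives, where its adjusted p in limma was 0.0516 to 0.649, among them those with arrays centred on their median (limma adjusted p = 0.0787) and the groups compared alone (limma adjusted p = 0.234), and after exercise it was gained with a replicate block on the groups compared (limma adjusted p = 0.0413). Rfx2, a transcription factor of cilium genes, differed by 0.22 in both states and did not pass. Ift80 at -0.26 and Cfap97 at 0.25 at rest, and Kif3a at 0.21 after exercise, also did not pass. With exercise, Cfap20 fell by 0.41 in wild type (limma adjusted p = 0.0446), a call lost with a replicate block (limma adjusted p = 0.0541), and no other gene of the list was called in either genotype. Over all genes, 1.21% were called lower with exercise in wild type.

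**Figure D5:**
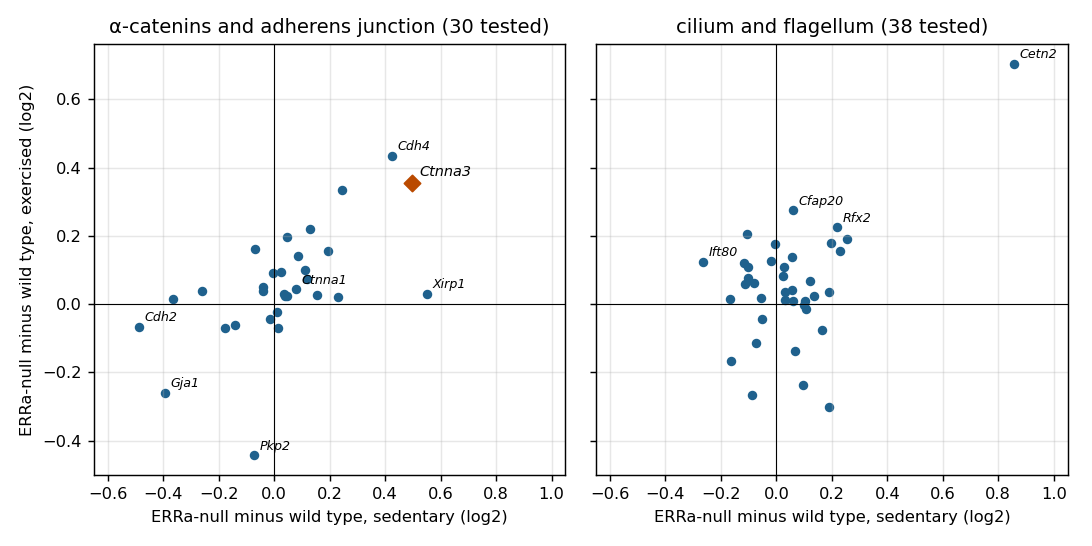
Genotype difference (ERRa-null minus wild type, log2) of each tested gene of the junction and cilium lists (points), at rest on the x axis and after exercise on the y axis, with Ctnna3 itself as a diamond. Cetn2 stands apart at 0.86 and 0.70, and the medians of the lists are 0.03 to 0.05.

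Markers of male germ cells and of heart, where Cabcoco1 and Ctnna3 are best known, were counted in the same way. Of 28 listed male germ cell markers, 26 were on the array, their mean per array was 4.64 to 4.83 over the 12 arrays, and 6 were tested. Of these, 0 passed limma's test for genotype, with 1 at an unadjusted p under 0.05 at rest, Prm3 at 0.30 (limma adjusted p = 0.513), and 0 after exercise. Of 14 heart muscle markers, 8 were tested, with means per array of 5.45 to 5.67 over all markers. Of these, 0 passed, with 0 at an unadjusted p under 0.05 at rest and 1 after exercise, Myh6 at 0.24 (limma adjusted p = 0.475). Over all genes, 8.22% at rest and 10.4% after exercise had an unadjusted p under 0.05. At most 0.286% were called in 1 direction. With 6 and 8 genes tested, the counts of these lists cannot be told from that background. Levels of liver, adipocyte and lymphocyte markers varied more between arrays, with means per array of 5.999 to 10.96, 6.74 to 9.89 and 5.39 to 7.98. Their part in the values of Cabcoco1 and Ctnna3 was not tested. The related receptors Esrrb and Esrrg differed by at most 0.10 between genotypes and did not pass.

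The genes most like Cabcoco1 and Ctnna3 were listed by Pearson's r over the 12 arrays, which share the genotype step, so r is a description here. That step chose both genes, and Esrra is the deleted gene, so their places in these lists test nothing. Within the genotypes r of the pair was 0.27 in wild type and -0.26 in ERRa-null muscle. For Cabcoco1 the highest r of 13307 genes was that of Ctnna3, 0.955, followed by Sytl2 at 0.947, Ctsf at 0.941, Cetn2 at 0.929 and Srpk3 at 0.927. The lowest were Mfn1 at -0.951, Esrra and Sdhaf2 at -0.947 each, Ndufab1 at -0.944 and Ndufa1 at -0.941. For Ctnna3 the highest were Cetn2 at 0.961, Cabcoco1 at 0.955, Ctsf at 0.932, Srpk3 at 0.924 and Sec14l1 at 0.921. The lowest were Mrpl34 at -0.958, Esrra at -0.955, Ndufab1 at -0.930, Gnb5 at -0.923 and Slco3a1 at -0.919. Cetn2, Ctsf and Srpk3 stood among the 5 highest of both genes, and Esrra and Ndufab1 among the 5 lowest of both. As background, Mfn1 drives mitochondrial fusion, Ndufa1 and Ndufab1 belong to respiratory complex I, Mrpl34 is a mitochondrial ribosomal protein and Srpk3 is a kinase of muscle.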

How the data were processed

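RNA was measured on 12 Affymetrix Mouse Gene 2.0 ST arrays. The deposited values are log2 expression levels, made by the authors with RMA, and with Affymetrix Expression Console and the Transcriptome Analysis Console, per the submitters' processing notes. No version or build of the genome is stated there. RMA corrects background and forces the arrays onto a common distribution, which removes changes shared by most genes.

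Groups came from the sample titles. Of 41345 probesets, 23521 have 1 gene symbol, 1814 several and 16010 none, and 23328 of the first matched RefSeq (GRCm38.p6), used for symbols, gene order and promoter sequences. The probeset with the highest mean stood for a gene. The 40% of genes with the lowest mean, under a log2 level of 5.32, were left out. The 4 group means were fitted with limma 3.58.1 in R 4.3.3 over all 12 arrays (8 residual degrees of freedom, eBayes with an intensity trend), with Benjamini-Hochberg adjustment over 13308 genes and a threshold of 0.05. Tests were two-sided. Values after ± are standard errors unless SD is written. Correlations used SciPy 1.17.1. The fit was tested on simulated data.

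The members and gene lists were chosen with earlier results of these data known. Named genes are Cabcoco1, Ctnna3, Esrra, called, nearest and overlapping neighbours, up to 4 genes a list with the smallest genotype p, and the 5 with the highest and lowest r. Genes named beyond this rule (Egr2, Xirp1, Ctnna1, Ctnna2, the genes next in size, the ends of ranges and other neighbours) were chosen after their values were seen. The main fit did not pair same-numbered arrays. Their deviations from group means correlated at 0.31, 0.21 and 0.17 for genotype after exercise. For exercise in wild type they correlated at 0.27, 0.063 and 0.16. For genotype at rest and exercise in ERRa-null muscle the signs were mixed. There is no read depth, and 3 arrays a group limit the precision. The limma p-values set a difference against the spread within groups of these arrays, pooled over the 4 groups and moderated over all genes tested. Both exercised groups mix arrays of high and low Xist, which enters that spread.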

Additional observations from a re-analysis of the deposited data

Results flagged for a closer look

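Lrrtm3 and Ddx50 were picked for the pattern below by looking through the 52 neighbours. With exercise in ERRa-null muscle, 10% of all genes tested had the 3 exercised arrays all below the 3 sedentary. Shares of the other separations were not counted, so how unusual the pattern is was not tested. Lrrtm3, the gene nested in Ctnna3, separated the genotypes in opposite directions in the 2 states. Every ERRa-null array was above every wild-type array at rest, with a difference of 0.4453, and below every one after exercise, with a difference of -0.2356. Likewise its exercised arrays were all above the sedentary ones in wild type (0.3431) and all below them in ERRa-null muscle (-0.3378). Its levels are below the filter value, and in the fit with no filter the interaction of -0.68 had an unadjusted p of 0.00194 and an adjusted p of 0.707 (limma), so the difference between the states did not pass.

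Ddx50, an RNA helicase gene on the outer side of Ctnna3, was higher in every ERRa-null array at rest, by 0.2999, and lower in every one after exercise, at -0.1503. Its interaction of -0.45 did not pass (limma adjusted p = 0.795).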

How the results depend on the processing

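The alternatives were no filter or a 20% filter on low values, the mean of a gene's probesets, no intensity trend, a replicate block, only the groups compared, median centring, leaving out each array, and leaving out the 3 arrays of high Xist. A replicate block on the groups compared alone was added after seeing the data. The genotype difference of Cabcoco1 kept its sign throughout, at 3.64 to 3.91 at rest and 3.81 to 4.19 after exercise when single arrays were left out, and that of Ctnna3 at 0.479 to 0.529 and 0.311 to 0.383. With the replicate block the differences after exercise were 3.99 and 0.354. That was fixed in advance, because every group holds the same replicate numbers. Filters and the intensity trend cannot change these differences either. The block on all arrays changed no exercise call of Cabcoco1 or Ctnna3 and no call of their neighbours.

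The exercise value of Cabcoco1 turned to 0.0602 in wild type without exercised replicate 3, and likewise without the 3 arrays of high Xist, and to -0.0359 in ERRa-null muscle without sedentary replicate 1. Over single arrays left out it ran from -0.318 to 0.0602 and from -0.0359 to 0.201, and its interaction from 0.0596 to 0.438. Ctnna3 with exercise ran from 0.00292 to 0.0532 in wild type and from -0.165 to -0.0935 in ERRa-null muscle, and its interaction from -0.186 to -0.114. Median centring turned the wild-type value of Ctnna3 to -0.00793. Its genotype difference after exercise moved to 0.301 without the 3 arrays of high Xist. None of the exercise values passed the test. The causes were not tested.

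The 3 neighbours called with exercise in wild type became 1 with only the groups compared, 0 with the replicate block on those groups, 0 with median centring, 0 without the 3 arrays of high Xist, and 0 to 4 with single arrays left out. The cause was not tested, other than fewer arrays where arrays were left out. For genotype, the count of neighbours called was 0 under every alternative run. The wild-type level of Cabcoco1 near the filter value limits how exactly its fold difference is known.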
